A study of Mus musculus with 3 samples.

Results

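The data described here are the transcript counts of 10 lysosomal genes as mouse embryonic fibroblasts (MEFs) entered reprogramming to pluripotency. The genes were taken by name from the deposited count table, which lists 50507 genes, and all 10 had counts. They are the proteases Ctsb, Ctsd, Ctsl, Ctsz and Lgmn, the membrane proteins Lamp1 and Lamp2, and the soluble proteins Psap, Npc2 and Grn. A low-count filter, which a gene had to pass to be tested, kept 8 of them and 3013 genes in all, and Ctsz and Lgmn did not pass. All cells were wild-type BL6 primary MEFs at passage 2 that had been transduced with lentiviruses for a doxycycline-inducible Oct4, Sox2, Klf4 and c-Myc cassette (tet-STEMCCA) and for rtTA, the doxycycline-dependent activator. Reprogramming was started by doxycycline in medium with chiron (a GSK3 inhibitor), Alk5i (a TGFb inhibitor), ascorbic acid and LIF, and Day00 is that starting point per the study's text. In the screen, cells were transfected before induction with pooled siRNAs against 1 of 33 genes, with a non-targeting siRNA (nt), or as a mock transfection (Mock), and were harvested at day 6 per the study's text. In the time course (Day00 to Day06) the cells received no transfection and were only re-plated, so that transfection and its controls differ from Day06 in handling as well as in siRNA. Each library was bulk RNA of a whole culture, in which cells that received or expressed the cassette cannot be told apart from cells that did not. Likewise, fewer cells of a type and less RNA per cell cannot be told apart.

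Lysosomes are acidic organelles that break down material delivered by endocytosis, phagocytosis and autophagy. Their cathepsins are made as inactive precursors, carried to the organelle by mannose 6-phosphate receptors or other sorting receptors, and activated at low pH. Ctsb, Ctsl and Ctsz are cysteine cathepsins, Ctsd is the main aspartic protease of the organelle, and Lgmn is an asparaginyl endopeptidase that also processes other cathepsins. Lamp1 and Lamp2 are heavily glycosylated proteins that make up much of the lysosomal membrane, and Lamp2 also serves in autophagy. Psap (prosaposin) is cut into the saposins, which help enzymes reach glycosphingolipids. Npc2 is a soluble protein that binds cholesterol inside the organelle and helps in its export. Grn (progranulin) is a secreted growth factor that is also cut into granulins in lysosomes. Fibroblasts are rich in lysosomes and secrete part of their cathepsins, which can degrade extracellular matrix.

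The libraries were made with CEL-Seq2, which counts transcript 3′ ends by unique molecular identifiers, and were sequenced as 3 pools, 1 per replicate. A replicate in the text below is such a pool. Of 129 libraries, 127 were used, namely 21 time-course, 3 nt, 5 Mock and 98 siRNA libraries. There were 3 libraries a condition, 1 in each pool, but 5 of Mock and 2 of siMtf1. Total counts per library ran from 29656 to 235292. Replicates were no repeats of 1 library: over 131 pairs the chi-square per gene ran from 1.30 to 5.69, above the 1 that counting noise alone gives. The transcripts of the 33 siRNA targets gave 369 counts in their own siRNA libraries where 391.8 were expected from the other transfected libraries, a ratio of 0.942 (95% counting interval 0.848 to 1.04), and 0 targets had an interval under 1. For Wdr5, Brca1 and Bard1, 7, 4 and 0 counts were found where 8.09, 3.84 and 1.31 were expected, and for Hdac1, the 1 target with an interval above 1, 18 were found where 9.95 were expected (ratio 1.81, 1.07 to 2.86). Lowering of the targets was thus not shown by these counts, and each siRNA named below stands for the libraries labelled with it. The study measured the knockdown of Wdr5, Brca1 and Bard1 separately and earlier in reprogramming, data not analysed here. Intervals cover counting error only. The 12 fibroblast markers summed to between 5604 and 6818 CPM on Day00, with 0 of them at 0. The 14 macrophage markers, which stand for a cell type very rich in lysosomes, summed to between 0 and 226 CPM over all libraries. C1qa had 0 counts in the 127 libraries, and Adgre1 and Csf1r had 7 and 10.

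CPM here are counts per 1000000 of the scaled total of the tested genes. A count of 3, the upper limit that a count of 0 allows, corresponded to between 13.6 and 121 CPM, with a median of 48.7. Counts of 3′ ends are not scaled to gene length, and levels were compared between conditions and not between genes. Tests were edgeR quasi-likelihood tests over all 3013 genes with the replicate as a block, and a value is called where its Benjamini-Hochberg adjusted p was under 0.05. Nothing in the labels says that replicates came from separate animals or cultures, and p-values measure the spread between these libraries, which may be partly technical.

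On GRCm38 (mm10), with GENCODE vM21 positions, Ctsb lies at chr14:63122462-63145923 (+), Ctsl at chr13:64359337-64370890 (-), Ctsz at chr2:174427493-174439039 (-), Lgmn at chr12:102394084-102439813 (-) and Ctsd at chr7:142375911-142388038 (-). Lamp1 lies at chr8:13159161-13175338 (+), Lamp2 at chrX:38401357-38456454 (-), Psap at chr10:60277627-60302597 (+), Npc2 at chr12:84754562-84773152 (-) and Grn at chr11:102430315-102437048 (+). All 10 are annotated as protein-coding. Exons of Ctsb, Ctsz, Lamp1, Grn and Ctsl overlap exons of a gene on the opposite strand (Fdft1 with 473 counts, Nelfcd with 137, Grtp1 with 154 and Fam171a2 with 25 over the 127 libraries, and Gm47123, which has no row in the count table), and the counting is not stated to use strand. On the same strand, exons of Ctsl and Ctsd overlap exons of Gm49230 and Gm49369, which share near-identical transcript sequence with them. These are further annotations at the same places, and neither has a row in the count table. Whether reads in the shared exons were dropped is not stated.

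Many lysosomal genes carry the E-box CACGTG, often as GTCACGTG, near their start site, the core of the motif bound by the TFEB and TFE3 family. The RefSeq promoter table (GRCm38.p6; 250 bases before to 50 after a start site) matched 9 of the 10 genes, all but Ctsb. CACGTG, a palindrome and thus the same on both strands, was found in 4 of the 9, namely Ctsd, Ctsl, Lamp1 and Lgmn, and in 8.09% of all 27025 genes in the table (7.15% of its 32851 windows, as a gene can have several). With a T before it on either strand (TCACGTG, which overlaps CACGTG), it was found in Ctsd, Lamp1 and Lgmn and in 4.29% of genes. Of the 79 matched genes of the lysosomal lists described at the end, 22 (27.8%) held CACGTG. The windows of the 2 LAMP genes are shown because the pair code for like proteins but differ in these letters, and because both transcripts were highest on Day03 of the time course but did not move together over all conditions (below). Capitals mark CACGTG. The first 2 sequences are the 120 bases before the start sites of Lamp1 (chr8:13159041-13159160, + strand) and Lamp2 (chrX:38456461-38456580, - strand), and the others are the 30 bases around the match in Ctsd (chr7:142387908-142387937, - strand) and Lgmn (chr12:102439124-102439153, - strand). Ctsd holds 2 matches, and the one that begins 98 bases before its start site is shown. Lgmn has 2 windows, of which the one at the start of the gene (chr12:102439679-102439978) holds 0 and the other, inside the gene, holds the match shown.
Lamp1: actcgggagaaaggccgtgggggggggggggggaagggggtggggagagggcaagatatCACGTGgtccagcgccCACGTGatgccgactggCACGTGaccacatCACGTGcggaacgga
Lamp2: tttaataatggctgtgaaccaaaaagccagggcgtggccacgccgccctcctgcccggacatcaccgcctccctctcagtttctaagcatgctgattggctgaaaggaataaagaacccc
Ctsd: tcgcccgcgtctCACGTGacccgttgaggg
Lgmn: tggaatgtctgtCACGTGgtccattttata
The 4 matches of Lamp1 begin 61, 45, 28 and 15 bases before its start site, and the Lamp2 window holds 0. A match in these letters is a description of the window, not a site of binding.

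The time course asked how the genes moved as fibroblasts entered reprogramming. The clearest feature was a rise at Day03, led by Ctsb, which was followed by a fall at Day04. Against Day00, 2 genes were higher on Day03 (Ctsb and Lamp2, of which Ctsb alone stayed called whichever replicate was left out), where 10.9% of all tested genes were called in either direction. The other 12 calls over the days were lower, making 14 of 48 pairs of gene and day against 17.5% over all tested genes, and Npc2 was lower on every day but Day03. By Day06, Ctsl, Lamp1 and Npc2 were below their Day00 level (3 of 8, background 22.2%). Over all days, 7 of the 8 tested genes differed, where 42.5% of all tested genes did, and Psap was the one that did not pass (adjusted p = 0.428).

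Ctsb, which codes for the abundant cysteine protease cathepsin B, showed the largest change from Day00 of the 8 genes. Its level was 636, 1016 and 670 CPM in replicates 1, 2 and 3 on Day00, 734, 672 and 376 on Day01, and 808, 1001 and 784 on Day02. On Day03 it was 2361, 2060 and 2331 CPM. It then was 1177, 881 and 1023 CPM on Day04, 850, 889 and 857 on Day05, and 727, 1211 and 900 on Day06. All 3 Day03 libraries lay above every other library of the time course, and the libraries of Day04 to Day06 overlapped those of Day00. The mean rose from 774 ± 210 CPM (SD, n = 3) on Day00 to 2251 ± 166 (SD, n = 3) on Day03, 2.98-fold (log2 fold change 1.58, SE 0.18, edgeR adjusted p = 2.63e-13). The step from Day02 to Day03 was 1.41 (SE 0.17, edgeR adjusted p = 4.46e-11) and that from Day03 to Day04 was -1.15 (SE 0.17, edgeR adjusted p = 9.81e-09). Day06 did not differ from Day00 beyond the spread (0.30, SE 0.20, edgeR adjusted p = 0.294).

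Ctsd codes for cathepsin D, the aspartic protease. It was at 821, 551 and 761 CPM on Day00 and at 275, 440 and 330 on Day01, and then at 784, 698 and 866 on Day02. The Day01 libraries lay below all of Day00 and Day02, a fall of 0.97 on the log2 scale (SE 0.24, edgeR adjusted p = 0.00196) and a return of 1.11 (SE 0.23, edgeR adjusted p = 0.000445). Day03 had 1067, 1030 and 959 CPM, all above Day00, but the log2 difference of 0.50 did not pass (SE 0.21, edgeR adjusted p = 0.103). From Day04 to Day06 the libraries ranged from 451 to 942 CPM and overlapped those of Day00. Neither call was kept in all subsets: the Day01 change was -0.74 without replicate 1 and -0.88 without replicate 3, and the return was 0.93 without replicate 3, none of them called.

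Ctsl codes for cathepsin L, also a cysteine protease. It was at 411, 339 and 414 CPM on Day00, 344, 257 and 216 on Day01, 331, 228 and 246 on Day02 and 297, 343 and 501 on Day03. Later levels were 89.7, 304 and 189 CPM on Day04, 216, 173 and 271 on Day05, and 297, 181 and 198 on Day06. Each library from Day04 on lay below all 3 of Day00, and Day03 overlapped Day00. The log2 change from Day00 was -0.97 on Day04 (SE 0.29, edgeR adjusted p = 0.00843), -0.77 on Day05 (SE 0.28, adjusted p = 0.0259) and -0.83 on Day06 (SE 0.30, adjusted p = 0.0289), and from Day03 to Day04 it was -0.99 (SE 0.28, adjusted p = 0.00862). These 4 calls were lost without replicate 3 (-0.94, -1.0, -0.71 and -0.67) and 3 of them, all but Day06, without replicate 1 (-0.57, -0.65 and -0.78), and those of Day05 and Day06 without replicate 2 (-0.58 and -0.74). The course of Ctsl was not tested against that of Ctsb, and both were called lower from Day03 to Day04.

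Ctsz and Lgmn were too weak for a test. Ctsz had 250 counts in all 127 libraries and Lgmn 223, with a median of 1 count per library. Ctsz had 56 counts over the time course, a pooled level of 30.8 CPM (95% Poisson interval 23.3 to 40.0), and Lgmn had 45, or 24.8 CPM (18.1 to 33.1). In the siRNA libraries the pooled levels were 26.2 CPM for Ctsz (22.5 to 30.4) and 24.3 for Lgmn (20.8 to 28.3). By day, Ctsz ran from 5 counts on Day00 (23.1 CPM, 7.49 to 53.8) to 15 on Day04 (46.0 CPM, 25.8 to 75.9), and these intervals overlap. In nt they had 10 and 6 counts, and in Mock 5 and 6. Differences of these genes between conditions were not tested.

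**Figure D1:**
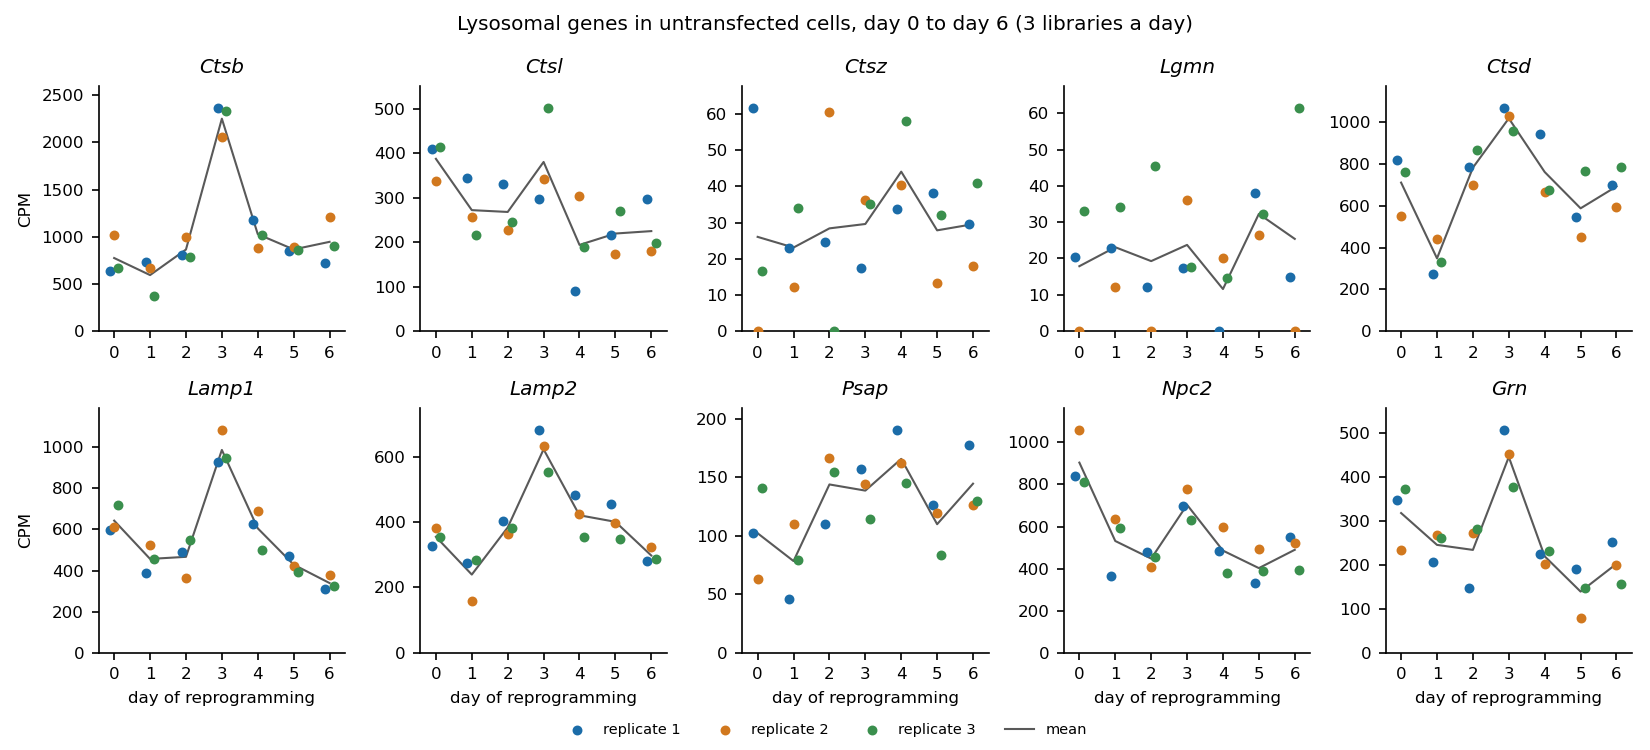
Level in CPM (linear axis from 0) of each of the 10 genes, Ctsz and Lgmn included, by day of reprogramming in untransfected cells. Each library is a point coloured by replicate, and a line runs through the means of 3 libraries. Ctsb stands at 2060 to 2361 CPM on day 3 and at 376 to 1211 on all other days, Npc2 is highest on day 0, and Psap stays between 45.8 and 191 CPM.

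Lamp1 and Lamp2, the membrane proteins, both stood highest on Day03 in the time course. Lamp1 was at 595, 614 and 720 CPM on Day00, 390, 525 and 455 on Day01, 490, 364 and 547 on Day02 and 927, 1084 and 950 on Day03. It then was at 628, 688 and 501 on Day04, 469, 425 and 393 on Day05 and 312, 380 and 327 on Day06. Its Day03 libraries lay above, and its Day05 and Day06 libraries below, all 3 of Day00. The step from Day02 to Day03 was 1.03 on the log2 scale (SE 0.21, edgeR adjusted p = 0.000267) and that to Day04 was -0.72 (SE 0.19, adjusted p = 0.00520), whereas Day03 against Day00 just missed the threshold (0.57, SE 0.20, adjusted p = 0.0514). Against Day00 it fell by 0.63 by Day05 (SE 0.22, adjusted p = 0.0171) and by 0.97 by Day06 (SE 0.23, adjusted p = 0.000563). The Day06 call held without each replicate in turn. The others were lost without replicate 2, at 0.78, -0.68 and -0.53, and those from Day03 to Day04 and on Day05 also without replicate 3, at -0.63 and -0.49.

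Lamp2 was at 328, 381 and 356 CPM on Day00, 275, 159 and 285 on Day01, 404, 364 and 383 on Day02 and 682, 632 and 554 on Day03. It was at 482, 425 and 356 on Day04, 457, 398 and 348 on Day05 and 282, 325 and 286 on Day06. The Day03 libraries lay above all others of the time course, a rise over Day00 of 0.78 (SE 0.25, edgeR adjusted p = 0.0256). Day06 lay just below the lowest Day00 library, and its log2 difference of -0.27 (SE 0.28, adjusted p = 0.536) did not pass. The Day03 rise was not called without replicate 1, 2 or 3, at 0.70, 0.82 and 0.84. The course of Lamp2 was not tested against that of Lamp1.

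Npc2, the cholesterol carrier, started high. Its Day00 level of 842, 1059 and 811 CPM was followed by 367, 635 and 592 on Day01, 478, 410 and 456 on Day02 and 699, 777 and 633 on Day03. Levels of 482, 597 and 377 CPM on Day04, 330, 491 and 387 on Day05 and 549, 524 and 395 on Day06 came after. On every later day all 3 libraries lay below all 3 of Day00. The log2 change was -0.69 on Day01 (SE 0.20, edgeR adjusted p = 0.0130), -0.98 on Day02 (SE 0.20, adjusted p = 9.21e-05), -0.91 on Day04 (SE 0.20, adjusted p = 0.000120), -1.15 on Day05 (SE 0.20, adjusted p = 7.45e-07) and -0.91 on Day06 (SE 0.20, adjusted p = 0.000168). On Day03 it was -0.36 (SE 0.20, adjusted p = 0.270). The Day01 call was lost without replicate 1 (-0.54) or 2 (-0.65) and that of Day02 without replicate 2 (-0.74).

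Grn, progranulin, was at 349, 233 and 372 CPM on Day00, 206, 269 and 262 on Day01, 147, 273 and 283 on Day02 and 507, 452 and 378 on Day03. It was then at 224, 202 and 232 on Day04, 190, 79.6 and 148 on Day05 and 252, 199 and 157 on Day06. The Day03 libraries were the highest of the course but close to those of Day00 (log2 0.38, SE 0.30, adjusted p = 0.494). It fell by 0.98 from Day03 to Day04 (SE 0.29, edgeR adjusted p = 0.0129) and was 1.22 log2 units under Day00 on Day05 (log2 fold change -1.22, SE 0.34, adjusted p = 0.00206). Day06 against Day00 gave -0.78 (SE 0.33, adjusted p = 0.0717). The fall to Day04 was not called without replicate 1 (-0.85) or 2 (-0.84), nor that of Day05 without replicate 3 (-1.15).

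Psap, prosaposin, was the least counted of the 8, with a median of 6 counts per library. It was at 103, 63.5 and 141 CPM on Day00, 45.8, 110 and 79.7 on Day01, 110, 167 and 155 on Day02 and 157, 145 and 114 on Day03. Later it was at 191, 162 and 145 on Day04, 127, 119 and 83.8 on Day05 and 178, 127 and 130 on Day06. Each day overlapped Day00 except Day04, which lay above it, and none of its 6 differences from Day00 was called. The lowest adjusted p of these was 0.418, on Day04.

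By day, the calls stood as follows beside those over all tested genes. On Day01, 2 of the 8 were lower (Ctsd and Npc2), where 9.89% of all tested genes were called in either direction. On Day02 it was 1 (Npc2) against 11.6%, on Day03 it was 2, both higher, against 10.9%, and on Day04 it was 2, both lower, against 18.7%. On Day05, 4 were lower against 31.9%, and on Day06, 3 were lower against 22.2%. All 6 comparisons share the Day00 libraries. The median log2 fold change over the 8 genes was 0.44 on Day03, where that over all tested genes was 0.01, and -0.53 on Day06, where it was 0.05. Between neighbouring days, 1 gene was called from Day01 to Day02 (Ctsd, background 4.81%), 2 from Day02 to Day03 (Ctsb and Lamp1, both higher, background 2.82%) and 4 from Day03 to Day04 (Ctsb, Ctsl, Grn and Lamp1, all lower, background 11.9%). From Day04 to Day05 (background 4.78%) and from Day05 to Day06 (background 7.87%) edgeR called 0, with 1 and 0 at an unadjusted p under 0.05, and DESeq2 and limma also called 0. Summed over the 10 genes, Day03 held 6601 ± 129 CPM (SD, n = 3), Day00 held 4239 ± 65.9 and Day06 held 3393 ± 148.

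Other cell markers moved with the days too. The fibroblast markers summed to between 3183 and 3827 CPM on Day03 and between 2400 and 2997 on Day06, with 0 of 12 at 0 on either day. The macrophage markers summed to between 141 and 226 CPM on Day00, 72.3 and 122 on Day03 and 34.1 and 89.0 on Day06. On Day03, 10 of the 14 were at 0, Csf1r, Adgre1 and C1qa among them, and 19 counts came from Lyz2. The epithelial markers summed to between 20.5 and 24.8 CPM on Day00 and between 74.2 and 253 on Day06. Their part in the falls after Day03 was not tested. Without the replicate block the calls of Lamp2 on Day03, Ctsl on Day05 and Day06, Lamp1 on Day05 and from Day03 to Day04, and Grn from Day03 to Day04 were lost, at log2 changes of 0.80, -0.79, -0.81, -0.61, -0.71 and -0.99. The Ctsb calls, and those of Npc2 from Day04 on, held under every alternative tried.

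The transfection controls asked how nt and Mock cultures compared with untransfected cells of the same day. Both had less Ctsb and Ctsd than Day06. Ctsb was at 400, 568 and 392.1 CPM in nt and at 645, 378, 404, 621 and 269 in the 5 Mock libraries, where all Day06 libraries were at 727 or above. The groups did not overlap, with a log2 change of -1.07 for nt (SE 0.21, edgeR adjusted p = 2.18e-05) and -1.11 for Mock (SE 0.21, adjusted p = 3.25e-06). Ctsd was at 433, 254 and 392.1 CPM in nt and at 361, 378, 288, 298 and 373 in Mock, against 697, 596 and 784 on Day06, again without overlap. Its log2 change was -0.96 for nt (SE 0.23, edgeR adjusted p = 0.000576) and -1.02 for Mock (SE 0.23, adjusted p = 0.000180). These 2 comparisons share the Day06 libraries.

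Ctsl and Psap were called in nt and Lamp2 in Mock. Ctsl stood at 333, 269 and 482 CPM in nt, higher than Day06 by 0.78 with its lowest library within the Day06 range (SE 0.29, edgeR adjusted p = 0.0326), and at 335, 240, 173, 248 and 179 in Mock, which overlapped Day06 (0.11, SE 0.32, adjusted p = 0.821). The nt call was lost without the replicate block (0.73), with RLE scaling in place of TMM (0.64), with DESeq2 (0.62), with no low-count filter (0.78), with limma on the deposited log2 values (0.37), without replicate 3 (0.29) and with nt and Mock as 1 control (0.49). Lamp2 stood at 542, 584, 548, 546 and 433 CPM in Mock, all above Day06 (0.80, SE 0.25, edgeR adjusted p = 0.00898, and 0.74, not called, without replicate 1), and at 483, 329 and 466 in nt (0.54, SE 0.26, adjusted p = 0.106). Psap had 2, 4 and 4 counts in the nt libraries (33.3, 59.8 and 32.7 CPM), against 12, 7 and 19 on Day06, a log2 change of -1.77 (SE 0.51, edgeR adjusted p = 0.00481). In Mock it had 0, 6, 4, 5 and 5 counts (0, 206, 115, 124 and 74.6 CPM), and the library at 0 allows up to 77.4 CPM. Mock against Day06 gave -0.58 for Psap (SE 0.43, adjusted p = 0.327), and nt and Mock together gave -1.08 (adjusted p = 0.0223). The nt call of Psap was lost without replicate 1 (-1.54) or 3 (-1.67).

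Of the 8 genes, 4 were called between nt and Day06 (1 higher and 3 lower, background 26.6%) and 3 between Mock and Day06 (1 higher and 2 lower, background 28.9%). Between Mock and nt edgeR called 0 of the 8 (background 1.56%), with 2 at an unadjusted p under 0.05. These were Ctsl (log2 -0.67, SE 0.29, adjusted p = 0.300) and Psap (1.2, SE 0.56, adjusted p = 0.355), and DESeq2 and limma also called 0. A p that misses the threshold does not show that the controls were alike. Lamp1, Npc2 and Grn overlapped Day06 in both controls, at log2 changes between -0.43 and 0.06. In nt the fibroblast markers summed to between 1675 and 2415 CPM and the epithelial markers to between 131 and 150, with 0 of 12 and 3 of 10 at 0. In Mock the ranges were 1663 to 3632 and 49.6 to 206 CPM. Their part in these differences was not tested.

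**Figure D2:**
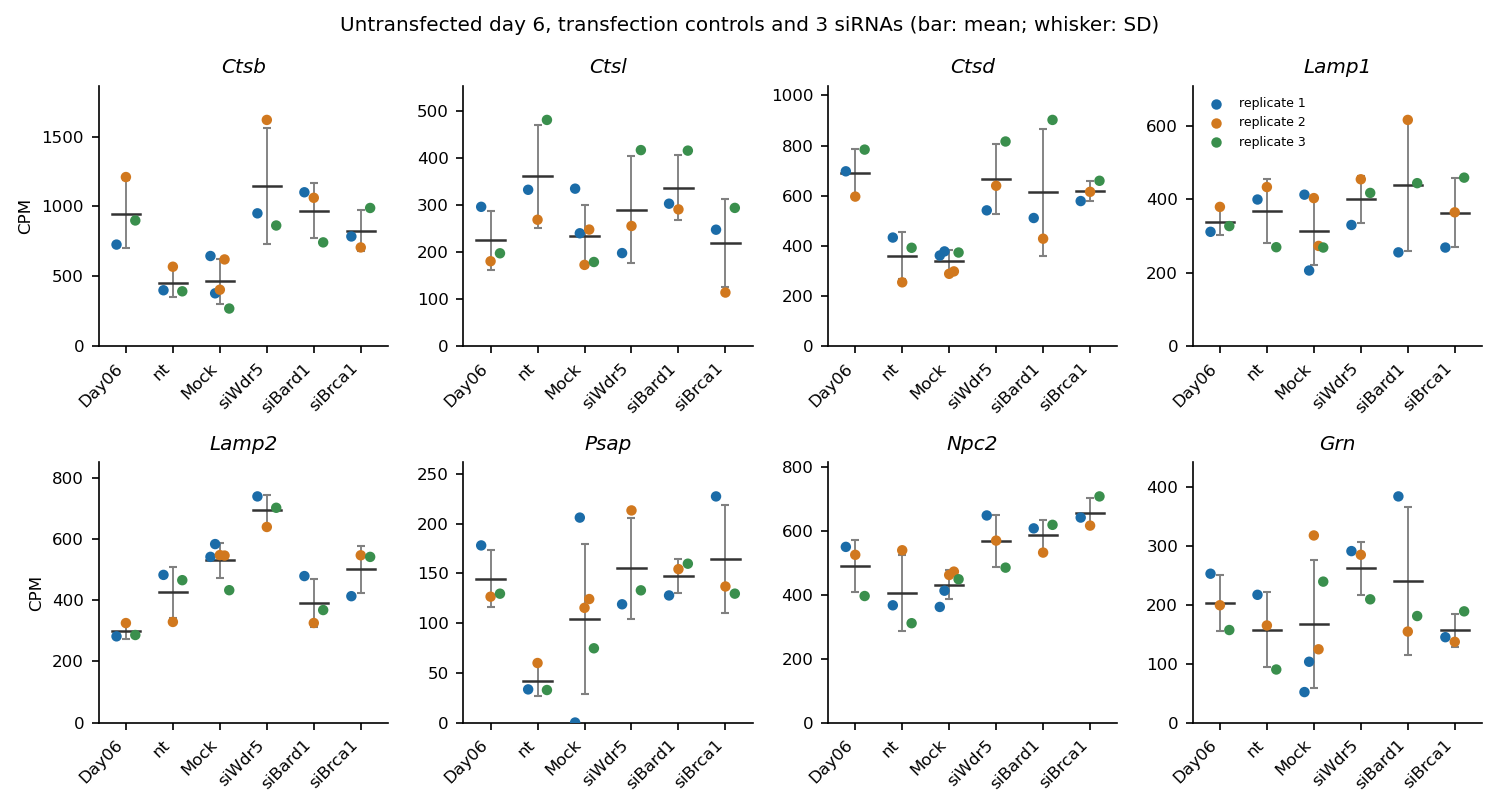
Level in CPM (linear axis from 0) of the 8 tested genes in untransfected Day06, in nt and Mock, and in the siWdr5, siBard1 and siBrca1 libraries, with a point per library coloured by replicate, a bar at the mean and a whisker of 1 SD (n = 3, Mock n = 5). Ctsb means are 946 CPM on Day06, 453 in nt, 463 in Mock and 1145, 969 and 827 in the 3 siRNAs.

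The siRNAs were compared with nt to ask which of the 33 targeted regulators affected these genes. The siRNAs against Wdr5, Bard1 and Brca1 gave the most calls, all of them higher. Ctsb, Ctsd and Psap were called with each of the 3, Lamp2 with siWdr5 and Npc2 with siBrca1. Values above nt were not particular to these 3, as they were found in 32 of the 33 siRNAs for Psap, 28 for Ctsb and 27 for Ctsd. Psap passed the low-count filter over all libraries, but with the libraries of 1 siRNA and nt alone it did not and had no test, so that none of its siRNA calls has a value under that alternative. The other siRNAs with a call were siEp300 with Psap, siIrx1 with Psap and Ctsl, and siEny2 with Ctsl, and Ctsl was the only gene called lower in this fit. In all, 15 of 264 pairs of gene and siRNA were called, 13 higher and 2 lower. Over all tested genes, 2.57% of such pairs were called. An unadjusted edgeR p under 0.05 was found in 62 of the 264. The share of all tested genes at that unadjusted level is not given here, and the 2.57% is not its counterpart. All comparisons share the 3 nt libraries, so that they are not independent of each other. Without the replicate block 6 pairs were called, and with RLE scaling 23 (22 higher and 1 lower). The number of siRNAs with a call was 6 here, 9 with RLE scaling, 10 with DESeq2, 12 with the compared libraries alone and 8 with nt and Mock as 1 control, but 3 without the block, 3 with no low-count filter, 2 with limma, and 3, 4 and 2 without replicates 1, 2 and 3. In each of the 4 alternatives with more such siRNAs, Ctsb was also called higher with siTead2, siEp300 and siKmt2d, which had just missed the threshold (0.79, SE 0.23, edgeR adjusted p = 0.0533, then 0.62, SE 0.21, adjusted p = 0.0586, and 0.73, SE 0.21, adjusted p = 0.0605), and Ctsb and Ctsd with siCdk1 (0.65 and 0.75, adjusted p = 0.0797 and 0.0575).

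Wdr5 codes for a WD-repeat subunit shared by the histone H3 lysine 4 methyltransferase complexes. In the siWdr5 libraries 4 of the 8 genes were called, all higher, where 27.2% of all tested genes were called. Ctsb was at 951, 1620 and 864 CPM against 400, 568 and 392.1 in nt, without overlap (log2 1.30, SE 0.21, edgeR adjusted p = 7.38e-08). Ctsd was at 541, 640 and 816 CPM against 433, 254 and 392.1 (0.90, SE 0.23, edgeR adjusted p = 0.00118). Both had thus a higher level in every siWdr5 library than in any nt library. Lamp2 was at 740, 640 and 702 CPM against 483, 329 and 466, also without overlap (0.68, SE 0.23, edgeR adjusted p = 0.0145). Psap had 9, 15 and 14 counts (119, 213 and 133 CPM) against 2, 4 and 4 in nt (1.86, SE 0.50, edgeR adjusted p = 0.00243), and against nt and Mock together the change was 1.17 (adjusted p = 0.0127). The remaining genes did not pass: Npc2 was at 647, 569 and 484 CPM (0.51, SE 0.22, adjusted p = 0.0674), Grn at 291, 284 and 209 (0.81, SE 0.36, adjusted p = 0.0748), Lamp1 at 330, 455 and 418 (0.19, SE 0.25) and Ctsl at 198, 256 and 418, overlapping nt. The median log2 fold change over the 8 genes was 0.75, and that over all tested genes was 0.00. Without replicate 2 the calls of Ctsd (0.69) and Lamp2 (0.53) were lost, and without replicate 1 (0.69) or without the block (0.70) that of Lamp2.

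The same libraries stood apart in their fibroblast markers, which summed to between 4662 and 5306 CPM in siWdr5 against 1675 to 2415 in nt, with 0 of 12 at 0. Their epithelial markers summed to between 26.4 and 56.9 CPM, with 6 of 10 at 0, and the early pluripotency markers to between 28.5 and 71.1, against 114 to 183 in nt. The macrophage markers summed to between 9.49 and 114 CPM in siWdr5 and between 49.0 and 74.8 in nt, with 12 and 9 of 14 at 0. The part of these markers in the siWdr5 values was not tested.

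Bard1 and Brca1 code for the partners of the BRCA1-BARD1 ubiquitin ligase of DNA repair. In the siBard1 libraries 3 of the 8 genes were called, all higher, against 10.3% of all tested genes. Ctsb was at 1102, 1062 and 743 CPM (1.07, SE 0.21, edgeR adjusted p = 6.16e-05), above all nt libraries. Ctsd was at 511, 428 and 902 CPM (0.86, SE 0.23, edgeR adjusted p = 0.00556), with its lowest library just under the highest of nt. Psap had 8, 9 and 23 counts, or 128, 154 and 160 CPM (1.85, SE 0.50, edgeR adjusted p = 0.00605), above all of nt. Against nt and Mock together the Psap change was 1.16 (adjusted p = 0.0290). Npc2 was at 607, 531 and 618 CPM and just missed the threshold (0.60, SE 0.22, adjusted p = 0.0532), and Lamp2, at 479, 326 and 368, overlapped nt. The Ctsd call was lost without the block (0.82), and those of Ctsd (0.45) and Psap (1.51) without replicate 3. The fibroblast markers summed to between 2433 and 3705 CPM, the epithelial ones to between 0 and 69.4 and the macrophage ones to between 16 and 69.4, and their part was not tested.

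In the siBrca1 libraries 4 of the 8 genes were called, all higher, against 4.22% of all tested genes, but only 1, Psap, was called without the replicate block. Ctsb was at 785, 707 and 989 CPM (0.94, SE 0.22, edgeR adjusted p = 0.00364) and Ctsd at 579, 615 and 660 (0.78, SE 0.25, edgeR adjusted p = 0.0445), both above all of nt. Npc2 was at 641, 615 and 707 CPM against 366, 538 and 310 in nt (0.76, SE 0.22, edgeR adjusted p = 0.0302), the one siRNA in which it was called in this fit. Psap had 11, 6 and 11 counts, or 227, 137 and 130 CPM (1.93, SE 0.53, edgeR adjusted p = 0.0150), and 1.24 against nt and Mock together (adjusted p = 0.0687). Without the block the log2 changes of Ctsb, Ctsd and Npc2 were 0.89, 0.78 and 0.72. Without replicate 1, 2 or 3 the number of calls was 1 (Ctsb), 2 (Ctsb and Psap) and 0, and without replicate 3 the changes of Ctsb, Ctsd, Npc2 and Psap were 0.64, 0.83, 0.48 and 1.92. The fibroblast markers summed to between 2371 and 3203 CPM, the epithelial ones to between 0 and 137 and the macrophage ones to between 41.3 and 160, and their part was not tested.

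**Figure D3:**
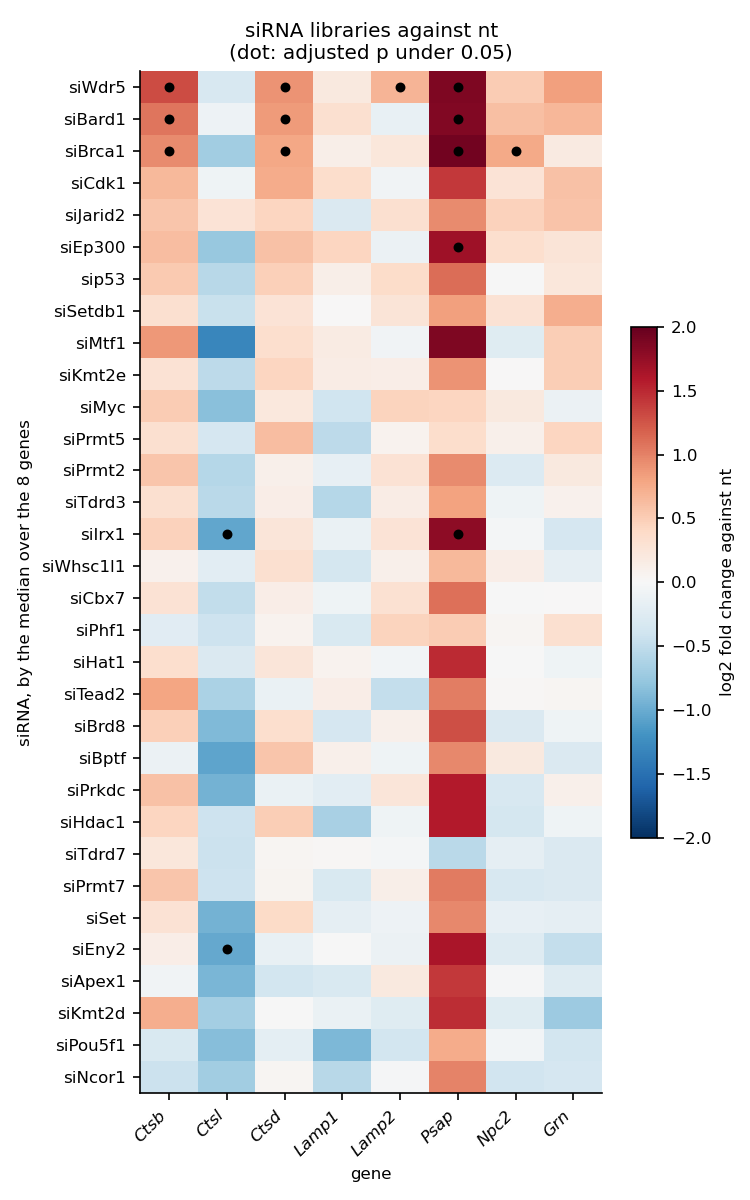
Log2 fold change against nt (colour, from -2 in blue to 2 in red) of the 8 tested genes (columns) in the siRNAs, all but 1 of the 33 (rows, ordered by the median over the genes), with a dot where the edgeR adjusted p was under 0.05. siWdr5, siBard1 and siBrca1 have the highest medians (0.75, 0.63 and 0.50), the Psap column is above 0 in every row shown but siTdrd7, and the Ctsl column is below 0 in every row shown but siJarid2.

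The other calls were of Psap and Ctsl. With siEp300, against a histone acetyltransferase, Psap was at 114, 85.1 and 163 CPM (1.69, SE 0.49, edgeR adjusted p = 0.0192), 1 of the 8 genes where 5.68% of all tested genes were called. With siIrx1, against a homeobox factor, Psap was at 109, 241 and 117 CPM (1.78, SE 0.50, edgeR adjusted p = 0.0278) and Ctsl at 188, 128 and 211 (-1.04, SE 0.29, edgeR adjusted p = 0.0278), 2 of the 8 genes against 2.02%. With siEny2, against a subunit of the SAGA and TREX-2 complexes, Ctsl was at 141, 135 and 243 CPM (-1.02, SE 0.30, edgeR adjusted p = 0.0377), 1 of the 8 genes against 1.89%. None of these 4 values was called without the block (1.64 for siEp300, 1.81 and -1.03 for siIrx1, -1.02 for siEny2) or with nt and Mock together as control (1.00, 1.09, -0.75 and -0.73). They were also lost without replicate 1 (1.68, 1.92, -1.11 and -0.95) and without replicate 3 (1.05, 1.76, -0.85 and -1.08), and without replicate 2 the siEp300 call of Psap was kept (2.10) and the other 3 were lost (1.72, -1.06 and -1.05).

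The nt libraries themselves stood near an end of the order for Psap and Ctsl. Over the 42 conditions of the study, nt had the 41st highest mean for Psap, and the siRNA log2 fold changes of Psap were above 0 in 32 of 33, with a median of 1.03. The exception was siTdrd7, with 58.6, 0 and 26.2 CPM. For Ctsl nt had the 4th highest mean, and 32 of the 33 siRNA values were below 0, with a median of -0.56. siJarid2 was the exception, with 519, 295 and 514 CPM and a mean of 442 ± 128 (SD, n = 3), the highest mean of all conditions (0.27 against nt, SE 0.28, adjusted p = 0.783). For the other genes the values lay on both sides of nt, above 0 in 28 siRNAs for Ctsb, 27 for Ctsd, 19 for Lamp2, 18 for Grn, 15 for Npc2 and 13 for Lamp1. The nt mean also stood low for Ctsb and Ctsd, at ranks 37 and 32 of the 42 conditions. It stood at ranks 25, 23, 22 and 17 for Lamp2, Grn, Npc2 and Lamp1.

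**Figure D4:**
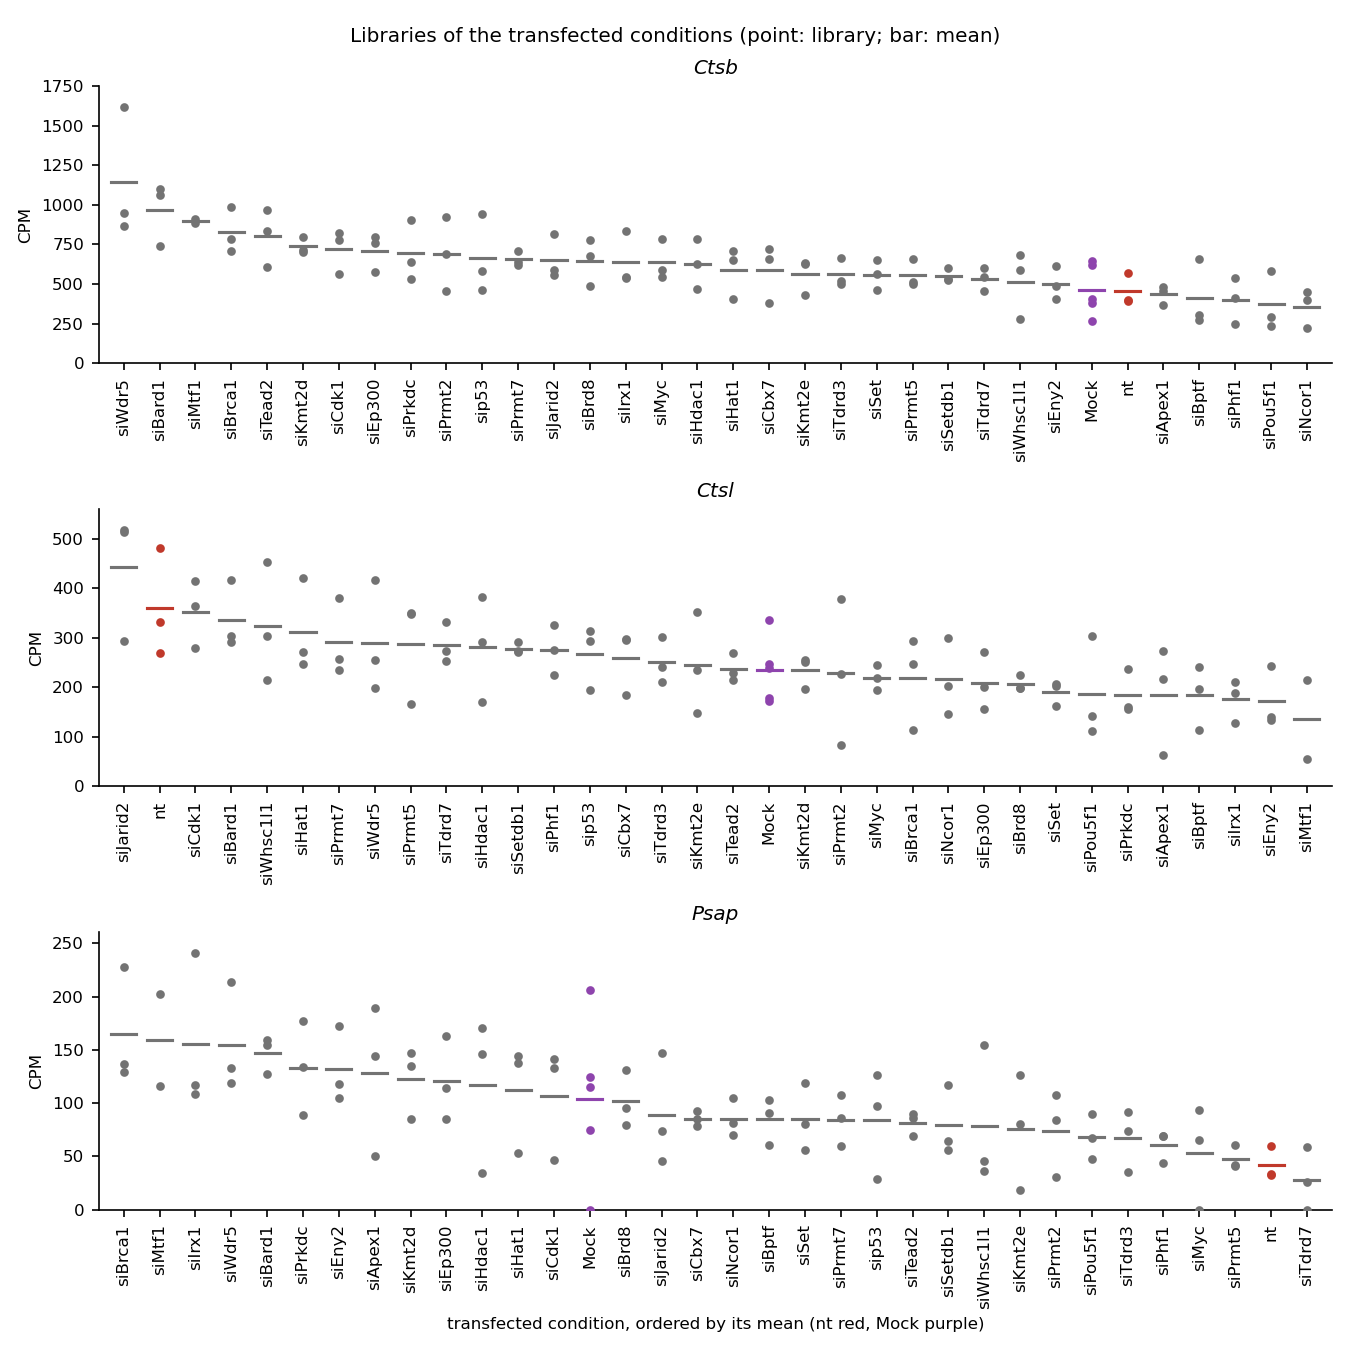
Level in CPM (linear axis from 0) of Ctsb, Ctsl and Psap in the transfected conditions, all but 1 of the 35, ordered within each panel by the mean, with a point per library, a bar at the mean, nt in red and Mock in purple. For Ctsb nt and Mock lie low and siWdr5 and siBard1 at the top, for Ctsl nt lies near the top, and for Psap nt lies next to the bottom.

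In order of mean level, Ctsb was highest on Day03, followed by siWdr5 (1145 ± 414 CPM), Day04 (1027 ± 148), siBard1 (969 ± 197) and Day06 (946 ± 245), all SD with n = 3. Libraries of the last 4 overlapped, and these 4 conditions were not tested against each other. At the other end stood siNcor1 at 449, 398 and 220 CPM, a mean of 355, and its difference from nt did not pass (-0.43, adjusted p = 0.436). Ctsd was highest on Day03 (1018 ± 54.8 CPM), and siWdr5 (666 ± 139) was the highest transfected condition, at rank 6. For Lamp1 the highest condition was Day03 (987 ± 84.9 CPM), the highest siRNA was siEp300 with 600, 610 and 335 CPM (0.43 against nt, adjusted p = 0.276), and the lowest condition was siPou5f1 with 158, 213 and 192 (-0.89, SE 0.31, adjusted p = 0.0665). Npc2 ran from 904 ± 135 CPM on Day00 to 293 in siNcor1, and Grn from 446 ± 64.6 on Day03 to 87.0 in siKmt2d. Summed over the 10 genes, siWdr5 held 4255 ± 455 CPM, siBard1 3794 ± 143, siBrca1 3562 ± 445, nt 2634 ± 114, Mock 2628 ± 168 (n = 5), siNcor1 2122 ± 29.4 and siPou5f1 2033 ± 333 (SD, n = 3 where not stated). In siPou5f1 the fibroblast markers summed to between 922 and 1081 CPM, below nt, and their part was not tested. Over the 35 transfected conditions all 8 genes differed among conditions, where 45.1% of all tested genes did.

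Several of the genes moved together over the 42 condition means of log2 CPM. The highest correlations were between Ctsb and Ctsd (Pearson r 0.73), Npc2 and Grn (0.71), Ctsb and Lamp1 (0.70) and Lamp1 and Grn (0.69). The lowest was between Ctsl and Psap (-0.28). The 2 LAMP genes gave r of -0.04, and Lamp2 stayed near 0 also with Ctsb (0.10) and Psap (-0.06). Over the means of the 7 days alone, however, r was 0.76 between Lamp1 and Lamp2 and 0.90 between Ctsb and Lamp2. In all, 25 of 28 pairs were above 0, with a median of 0.41, or 0.32 over the 35 transfected conditions alone, where the median over all pairs of tested genes was 0.01. These values are a description: the conditions share pools, depth and, for the siRNAs, a day, and no p is given.

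**Figure D5:**
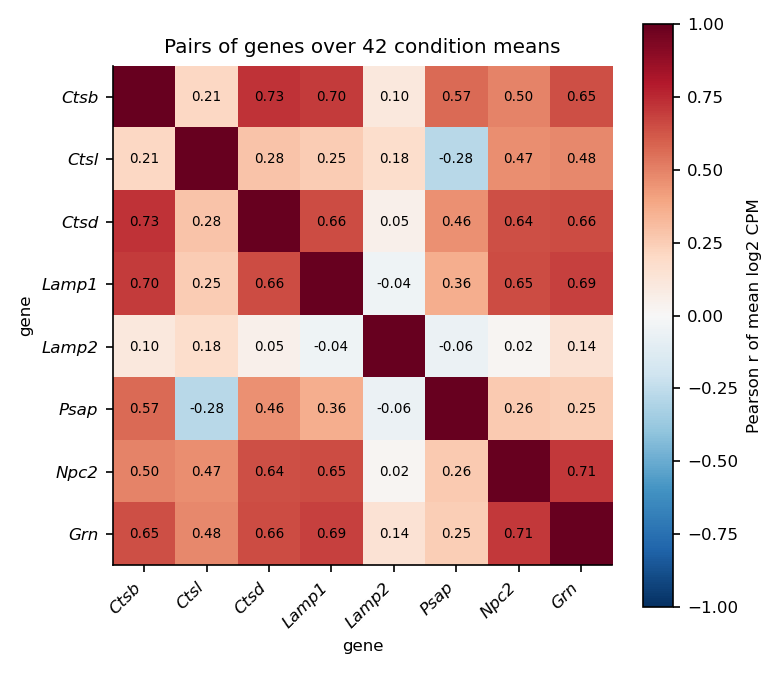
Pearson r (colour from -1 in blue to 1 in red, value printed in each cell) between each pair of the 8 tested genes over 42 condition means of log2 CPM. The values among Ctsb, Ctsd, Lamp1, Npc2 and Grn lie between 0.50 and 0.73, those of Lamp2 lie between -0.06 and 0.18, and the value of Ctsl with Psap is -0.28, although each of these 2 is above 0 with the first 5 genes.

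The tested genes most like the summed level of the 10 over the same 42 means were Fth1, the ferritin heavy chain that stores iron (r 0.87), Pdpn, a membrane glycoprotein of fibroblasts and other stroma (0.85), Atp6ap1, an accessory subunit of the proton pump of lysosomes (0.84), Gsn, which severs actin filaments (0.83), and Calr, a chaperone of the endoplasmic reticulum (0.82).

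Other genes of the lysosomal pathway were read from 8 lists of 104 genes, of which 27 passed the filter. On Day03 against Day00, 4 were higher and 0 lower, namely the proton pump subunit Atp6v0b, the acid lipase Lipa and the peptidases Scpep1 and Tpp1, where 10.9% of all tested genes were called in either direction, and the median over the 27 was 0.39 on the log2 scale. On Day06 against Day00, the share called was near the 22.2% of all tested genes called in either direction. With a median of -0.51, 0 of the 27 were higher and 7 lower. Among these, Cd63, a tetraspanin of late endosomes, was at 903 ± 183 CPM against 1603 ± 133 on Day00 (-0.86, edgeR adjusted p = 4.05e-05), and the autophagy proteins Map1lc3b and Gabarap were at 159 ± 35.2 against 335 ± 39.5 (-1.19, adjusted p = 0.00396) and at 332 ± 9.59 against 593 ± 122 (-0.87, adjusted p = 0.00347). The cathepsin inhibitors Cst3 and Serpinb6a also fell (-1.35, adjusted p = 0.0243, and -0.70, adjusted p = 0.0420), as did Atp6ap1 (-0.87, adjusted p = 0.0144) and the retromer subunit Vps35 (-1.06, adjusted p = 0.0137), all n = 3. By list, the calls were 1 of 9 tested proton pump subunits, 2 of 3 autophagy genes, 2 of 2 cathepsin inhibitors, 1 of 5 other membrane proteins and cofactors, 1 of 3 sorting genes, 0 of 3 other peptidases and 0 of 2 glycosidases and lipases. None of the 4 transcription regulators Tfeb, Tfe3, Mitf and Zkscan3 passed the filter.

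Between nt and Day06, 2 of the 27 were higher (Vps35 at 1.55 and Serpinb6a at 0.85, adjusted p = 3.86e-05 and 0.00701) and 2 lower, the peptidases Scpep1 (92.0 ± 26.6 against 203 ± 57.7 CPM, adjusted p = 0.0401) and Tpp1 (167 ± 75.7 against 339 ± 84.1, adjusted p = 0.0132), where 26.6% of all tested genes were called. With siWdr5 4 were higher and 3 lower than in nt, a share near the 27.2% of all tested genes. Scpep1 was at 290 ± 55.9 CPM against 92.0 ± 26.6 (1.65, edgeR adjusted p = 0.000108), Tpp1 at 340 ± 166 against 167 ± 75.7 (1.06, adjusted p = 0.00715), Map1lc3b at 242 ± 36.4 against 94.2 ± 30.2 (1.29, adjusted p = 0.00626) and Cd63 at 1093 ± 214 against 706 ± 124.7 (0.65, adjusted p = 0.00447). Serpinb6a, Vps35 and the proton pump subunit Atp6v1f were lower (-1.07, -1.09 and -1.06, adjusted p = 0.000719, 0.00274 and 0.0145). With siBard1, Scpep1, Tpp1, Cd63 and Laptm4a were higher and Vps35 lower (background 10.3%), and with siBrca1, Scpep1 and Cd63 were higher (background 4.22%). The comparisons share the nt libraries, and Mock against nt gave 0 calls of the 27.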

How the data were processed

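Per the study's methods, the authors aligned CEL-Seq2 reads to mm10 with Bowtie2, corrected counts by molecular identifier against GENCODE vM13 and dropped poor libraries. Per gene and library, the deposited counts are whole numbers, not normalized, and the deposited log2 values are log2 CPM from which the authors regressed the batch, used here in 1 alternative. Column names gave the conditions. For replicate 3 the log2 table holds 1 Mock column, and it was paired with the Mock counts it correlated with more (0.987 against 0.0254). Values of 2 libraries the authors had removed (6403 and 7981 counts) were not used.

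The 127 other libraries (median 73279 counts) were fitted together with edgeR 4.0.16 in R 4.3.3 (filterByExpr by condition, TMM factors of 0.825 to 1.39, terms for condition and replicate, quasi-likelihood test, 83 residual degrees of freedom, threshold 0.05). The scripts were tested on simulated data. The replicate is the sequenced pool, a batch, and deviations from condition means correlated at a median of 0.0981 within pools and -0.0685 between them. Alternatives were RLE factors, DESeq2 1.42.0, no filter, no block, each replicate left out, the compared libraries alone, nt with Mock as control and limma 3.58.1. The members, lists and tests were chosen with earlier results of these data known. All 10 genes are named, siRNAs where 1 of them was called (and siWdr5, siBard1 and siBrca1), and pathway genes by up to 2 called values per list and direction with at least 50 CPM. The siRNAs siJarid2, siTdrd7, siNcor1, siPou5f1, siKmt2d, siTead2 and siCdk1 were named after their values were seen. Values of 1 siRNA are not reported here, and its libraries stayed in the fit and in the counts.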

Additional observations from a re-analysis of the deposited data

Results flagged for a closer look

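Among the 5 Mock libraries, the lowest Lamp2 level, 433 CPM in replicate 3, stood apart from the other 4, which lay between 542 and 584 CPM. Its gap to the nearest of them was 0.723 of the range of the group, where Dixon's critical value for 5 samples is 0.71. The levels of 10 genes were examined in this way, and chance alone gives such a gap in about 1 of 20 groups. The lowest library is the only Mock library used from its sequencing pool, whereas the other 4 are pairs from the pools of replicates 1 and 2, and Dixon's rule takes the 5 as independent samples.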

How the results depend on the processing

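All 43 called values kept their direction under every alternative that gave one, and 11 stayed called under all of them: Ctsb in 6 comparisons, Ctsd in nt and Mock against Day06, and Npc2 on Day04, Day05 and Day06. DESeq2 gave 2 called values no adjusted p. Leaving out each replicate in turn gave 7 to 9 calls over the days where the full data gave 14, 2 to 4 for nt against Day06 (4), 5 to 9 over the siRNAs (15), 5 to 7 for any difference among transfected conditions (8), 2 to 4 for siWdr5 (4), 1 to 4 for siBard1 (3) and 0 to 2 for siBrca1 (4). With no low-count filter, and so more tests, the calls were 8 over the days, 2 for nt against Day06, 5 over the siRNAs, 5 among transfected conditions, 1 for siBard1 and 1 for siBrca1. Without the replicate block they were 6 over the siRNAs and 1 for siBrca1, where 16 of the 43 values lost their call, each given in the report. RLE scaling gave 23 calls over the siRNAs. With limma on the deposited log2 values they were 1 for Day06 against Day00 (3 in edgeR), 5 over the days, 3 for any difference over the days (7), 2 for nt against Day06, 2 over the siRNAs, 3 among transfected conditions, 1 for siWdr5, 0 for siBard1 and 1 for siBrca1. Mock against nt gave 0 under each alternative that keeps the 2 controls apart. With the compared libraries alone, Psap had no value in the 5 siRNAs where it was called, as it did not pass the filter there. The cause of these differences was not tested.

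RLE factors moved the median log2 change over all tested genes by -0.15 to -0.21 for Day02, Day04, Day05 and Day06 against Day00, by 0.12 from Day02 to Day03, by -0.13 from Day03 to Day04, by -0.14 and -0.11 for nt and Mock against Day06, and by 0.17 for siWdr5. With them 6 genes were called higher in siWdr5 and 5 from Day02 to Day03, 7 lower from Day03 to Day04, and 0 higher and 3 lower in nt against Day06. DESeq2 gave 6, 4, 6, and 0 and 3. From Day03 to Day04, where 4 were called in edgeR, 2 were called without the block or whichever replicate was left out and 1 with no low-count filter or with limma. With the compared libraries alone Day03 against Day00 gave 4 calls in place of 2, with Ctsd and Lamp1 added, and Day02 to Day03 gave 5, whereas Day03 against Day00 gave 1 (Ctsb) without the block, whichever replicate was left out, with no low-count filter and with limma. Depth limited Ctsz, Lgmn and Psap most, with medians of 1, 1 and 6 counts per library.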
